A study of Mus musculus with 4 samples.

Results

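The sites described here are those of 9 genes that encode histone acetyltransferases other than HAT1, namely Kat2a, Kat2b, Kat5, Kat6a, Kat6b, Kat7, Kat8, Ep300 and Crebbp. A site is a region of open chromatin listed in an ATAC-Seq table, and a site was taken as a member when it overlapped the body of one of these genes or lay within 10 kb of one of their transcription start sites (TSSs) in the GENCODE annotation of mm10. The rule used positions only and no measured value. It gave 51 of 82325 sites, of which 9 were the promoter sites, defined as the strongest site within 1 kb of a protein-coding TSS of each gene. Of the 51 sites, 13 lay within 1 kb of a protein-coding TSS of their gene, 30 in introns, 1 over an exon and 7 outside the gene body.

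In ATAC-Seq, the Tn5 transposase cuts accessible DNA and adds sequencing adapters, so that reads collect over open chromatin. The libraries came from mouse embryonic fibroblasts of C57bl6 background that had been immortalized with a viral T antigen, which is shared by both genotypes. There were 2 libraries from HAT1+/+ lines (WT) and 2 from HAT1-/- lines (KO), each from a separate line, and HAT1 was absent from the KO embryos in all tissues. With 2 lines per genotype, a difference between genotypes and a difference between lines are separated only as far as the lines of 1 genotype resemble each other. A normalized count below is the number of reads over a site divided by a factor for its library, as the authors deposited it. The tests compare KO with WT over all 82325 sites by limma on log2(value + 1), where a site was called at an unadjusted p under 0.01 and a log2 fold change of at least 1 in either direction.

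Histone acetyltransferases transfer an acetyl group from acetyl-CoA to lysines of histones, mostly on histones already packed in nucleosomes, whereas HAT1 acts on newly made histone H4 before assembly. They fall into families. KAT2A (GCN5) and KAT2B (PCAF) are paralogues of the GNAT family and act in the SAGA and ATAC coactivator complexes. KAT5 (TIP60), KAT6A (MOZ), KAT6B (MORF), KAT7 (HBO1) and KAT8 (MOF) form the MYST family, which act in complexes with scaffold and reader subunits. EP300 (p300) and CREBBP (CBP) are large paralogous coactivators that acetylate histones at promoters and enhancers. All of these genes are broadly expressed, and their promoters are of the CpG-rich kind typical of such genes.

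Promoter sequences are shown for the genes whose promoter sites carry the results below. Kat6b had the highest promoter value per kb, which was the rule for showing it. The other 4 were chosen after their values were seen, Kat7 and Kat5 for the highest promoter fold changes, and Ep300 and Crebbp as a pair of paralogues that differ in level. RefSeq (GRCm38.p6, the assembly of mm10) held a window from 250 bases before to 50 bases after the start for 8 of the 9 genes, and Kat6a was not among them. Where a gene had several windows, as 4 of the 8 did, the one with the most bases in the promoter site was used. Between equal windows the first listed was taken, and in each of these genes the choice was the 5′-most start. The sequences run 5′ to 3′ on the strand of the gene, and capitals mark matches on either strand to 1 of 7 motifs, where matches may overlap. These were GGGCGG (recognised by SP-family factors), CCGGAAG (ETS-family factors), GCGCATGCG (NRF1), AAGATGGCG (YY1), TATAAA (the TATA box), TGACGTCA (CREB-family factors) and CCAAT (NF-Y). Kat6b lies at chr14:21499520-21499819 on the plus strand, Kat7 at chr11:95310197-95310496 on the minus strand, Kat5 at chr19:5610045-5610344 on the minus strand, Ep300 at chr15:81585964-81586263 on the plus strand and Crebbp at chr16:4213355-4213654 on the minus strand.
Kat6b: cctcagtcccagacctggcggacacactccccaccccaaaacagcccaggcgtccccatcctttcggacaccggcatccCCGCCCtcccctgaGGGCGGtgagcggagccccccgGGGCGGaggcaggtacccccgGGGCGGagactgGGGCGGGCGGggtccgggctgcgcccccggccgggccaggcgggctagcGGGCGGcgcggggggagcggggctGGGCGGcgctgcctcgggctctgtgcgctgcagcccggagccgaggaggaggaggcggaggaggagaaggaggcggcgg
Kat7: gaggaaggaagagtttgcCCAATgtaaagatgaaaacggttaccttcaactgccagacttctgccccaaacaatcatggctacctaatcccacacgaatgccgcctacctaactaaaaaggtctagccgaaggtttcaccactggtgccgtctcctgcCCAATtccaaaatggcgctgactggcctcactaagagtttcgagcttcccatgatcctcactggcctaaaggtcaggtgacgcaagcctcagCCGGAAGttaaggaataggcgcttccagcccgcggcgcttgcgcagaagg
Kat5: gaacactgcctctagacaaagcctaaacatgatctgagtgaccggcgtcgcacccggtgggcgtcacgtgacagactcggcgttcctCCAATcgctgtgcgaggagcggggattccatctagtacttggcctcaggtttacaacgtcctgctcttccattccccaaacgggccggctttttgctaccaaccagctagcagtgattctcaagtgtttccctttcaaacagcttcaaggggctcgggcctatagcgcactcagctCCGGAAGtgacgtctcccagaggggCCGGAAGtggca
Ep300: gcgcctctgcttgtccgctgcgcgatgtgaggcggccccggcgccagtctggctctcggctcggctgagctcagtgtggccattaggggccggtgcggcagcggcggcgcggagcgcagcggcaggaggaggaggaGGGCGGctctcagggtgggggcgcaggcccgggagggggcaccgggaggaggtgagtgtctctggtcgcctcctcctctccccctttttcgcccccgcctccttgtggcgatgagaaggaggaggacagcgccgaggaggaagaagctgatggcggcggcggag
Crebbp: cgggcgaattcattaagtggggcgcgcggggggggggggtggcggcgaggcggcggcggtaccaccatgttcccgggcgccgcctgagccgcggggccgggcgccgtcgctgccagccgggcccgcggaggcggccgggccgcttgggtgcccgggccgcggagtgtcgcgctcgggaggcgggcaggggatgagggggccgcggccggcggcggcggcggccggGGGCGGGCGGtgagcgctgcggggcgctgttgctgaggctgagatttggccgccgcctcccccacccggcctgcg

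The windows were rich in CpG. Their median was 19 CpG in 300 bases over the 8 genes, with a range from 11 in Kat2b to 49 in Crebbp, against a median of 7 over 32851 windows of RefSeq genes. Kat6b held GGGCGG 8 times, Crebbp held it 2 times, and Ep300 and Kat8 held it 1 time each. At least 1 copy was thus present in 4 of the 8 windows used and in 35.7% of all windows, which include several per gene. With every window of a gene counted, 5 of 8 genes held it, since the other Kat5 window has 3 copies, and the counts of genes for the other motifs were the same. CCGGAAG was present in 3 of 8 windows, those of Kat5, Kat7 and Kat8, and in 8.86% of all windows. In all 3 genes it lay within the 50 bases downstream of the start, at 13 and 38 bases in Kat5, 0 bases in Kat7 and 1 base in Kat8. CCAAT was found in 4 of 8 windows, those of Kat2b, Kat5, Kat7 and Kat8, and in 37.4% of all windows. The motifs of NRF1, YY1, the TATA box and CREB were found in 0 of the 8 windows, and in 1.75%, 1.40%, 13.6% and 1.79% of all windows. The Kat2a window held none of the 7 motifs. The windows of Kat6b, Kat2b and Crebbp had 0 bases in the promoter site of their gene. A match describes the letters in these windows and does not show that a factor was bound.

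Over all sites the 4 libraries had medians of 51 to 53 normalized counts, and the approximate number of reads in sites was 9430000 and 11400000 in the WT libraries and 7830000 and 5680000 in the KO libraries, so that both KO libraries were the shallower. Spearman correlations between libraries ranged from 0.835 to 0.891 across sites. All 10 fibroblast marker genes listed for the check of cell type had a promoter site, with a median of 233 normalized counts, whereas 0 of 4 blood and 0 of 2 muscle markers had one. This level is near the median of 228 over all protein-coding promoter sites, and the fibroblast marker Thy1 (78.75) lay below the epithelial marker Krt8 (93.5). The strongest promoter sites of the 3 epithelial markers with a site had a median of 39, those of 3 endothelial markers 55.5, and 1 of 3 neural markers had a site. The Hat1 promoter site gave 390 and 384 in WT and 438 and 368 in KO, a log2 fold change of 0.05 (SE 0.14), and accessibility at this site therefore gives no check of the genotype.

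Each of the 9 genes had an open promoter in all 4 libraries, and their levels differed widely between genes. Per kb of site, the scale used to compare genes, Kat6b was highest with 662 normalized counts as the mean of 4 libraries, and a range from 578 to 739. Kat7 followed with 567 (500 to 689), then Kat5 with 303 (261 to 383), Ep300 with 285 (258 to 312) and Kat8 with 284 (227 to 319). Lower were Crebbp with 210 (185 to 223), Kat2b with 202 (181 to 233), Kat2a with 185 (154 to 211) and Kat6a with 134 (125 to 142). The median over 12286 promoter sites of protein-coding genes was 256 per kb. Kat6b and Kat7 thus stood at percentiles 98.0 and 95.5 of these sites, while Kat6a stood at percentile 18.5. The ranges of Kat6b and Kat7 overlapped, as did those of Kat5, Ep300 and Kat8, and those of Crebbp, Kat2b and Kat2a. Among neighbours in the order, no overlap was seen between Kat7 and Kat5, between Kat8 and Crebbp, or between Kat2a and Kat6a, while Kat2b overlapped Kat8. Kat6b, Kat7 and Kat6a held ranks 1, 2 and 9 in every library.

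**Figure D1:**
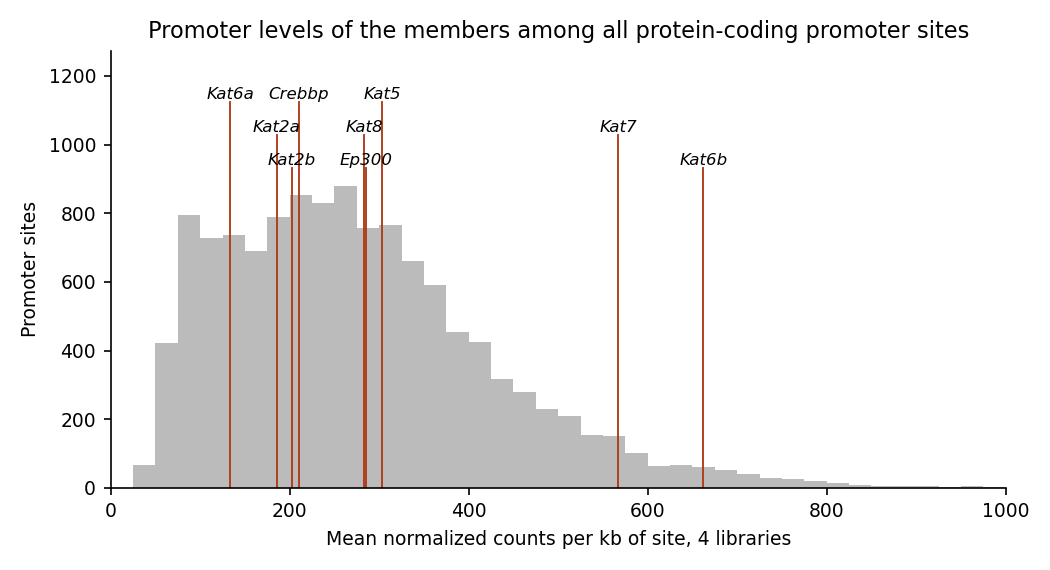
Distribution of the mean normalized counts per kb over 12286 promoter sites of protein-coding genes (grey bars, linear axes; 7 sites above 1000 per kb lie outside the range), with the 9 acetyltransferase genes marked by lines. Kat6b (662) and Kat7 (567) lie in the upper tail, and Kat6a (134) lies below the median of 256.

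Paralogues differed to unequal degrees. Kat6b and Kat6a encode the alternative catalytic subunits of the MOZ and MORF complexes, and the Kat6b promoter was 4.62 to 5.23 times that of Kat6a per kb in the 4 libraries. Ep300 exceeded Crebbp by 1.25 to 1.42 times per kb in every library. Kat2b over Kat2a gave ratios from 0.856 to 1.37 per kb. These ratios are over sites of unequal length, 1435 bp in Kat6b against 928 bp in Kat6a, 1898 bp in Ep300 against 628 bp in Crebbp and 878 bp in Kat2b against 506 bp in Kat2a. Over whole sites the ratios were 7.15 to 8.08 for Kat6b over Kat6a, 3.77 to 4.29 for Ep300 over Crebbp and 1.49 to 2.38 for Kat2b over Kat2a, so that the order of Kat2b and Kat2a depends on the scale. Only the strongest site of each gene is counted. Kat6a and Crebbp had a second site within 1 kb of a TSS, with means of 94.25 and 68 beside 124 and 132. Kat6b and Ep300 had 1 such site each, while Kat2b had 3 and Kat2a 1. The whole-site ratios thus leave out part of the promoter signal of Kat6a, Crebbp and Kat2b.

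To ask whether the loss of HAT1 was accompanied by altered accessibility at the genes of the other acetyltransferases, KO was compared with WT at the 51 sites. None of the 51 sites was called by limma, in either direction. Over all 82325 sites, 249 were called as lower in KO, which is 0.302%, and 58 as higher, which is 0.0705%. At an unadjusted p under 0.05 and any fold, 0 of the 51 sites passed, against 3.13% of all sites, and limma without the intensity trend also called 0. The lowest unadjusted p by limma was 0.0557, at the Kat7 promoter, and every Benjamini-Hochberg adjusted p over all sites was 1. No site of the whole table had an adjusted p under 0.05.

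The log2 fold changes of the 51 sites ranged from -0.84 to 0.58 with a median of -0.01, against a median of 0.0062 over all sites. Of the 51, 27 were below 0, or 52.9%, against 49.3% of all sites. Fold changes within 0.5 of 0 made up 86.3% of the member sites and 76.3% of all sites, and 0 of 51 reached an absolute value of 1, against 6.42% of all sites. The 95% interval lay wholly between -1 and 1 for 21 of 51 sites, among them all 9 promoter sites and 12 of the 42 others. At the remaining sites a change of 2-fold lies within the interval, so that its absence is not shown. Both KO values lay above both WT values at 7 sites, against a background of 14.6% of all sites, and below them at 5 sites, against 14.3%. Lines of 1 genotype differed by a median absolute log2 value of 0.28 in WT and 0.39 in KO at these sites, beside 0.34 and 0.43 over all sites, and the median absolute fold change between genotypes was 0.22, beside 0.25 over all sites.

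**Figure D2:**
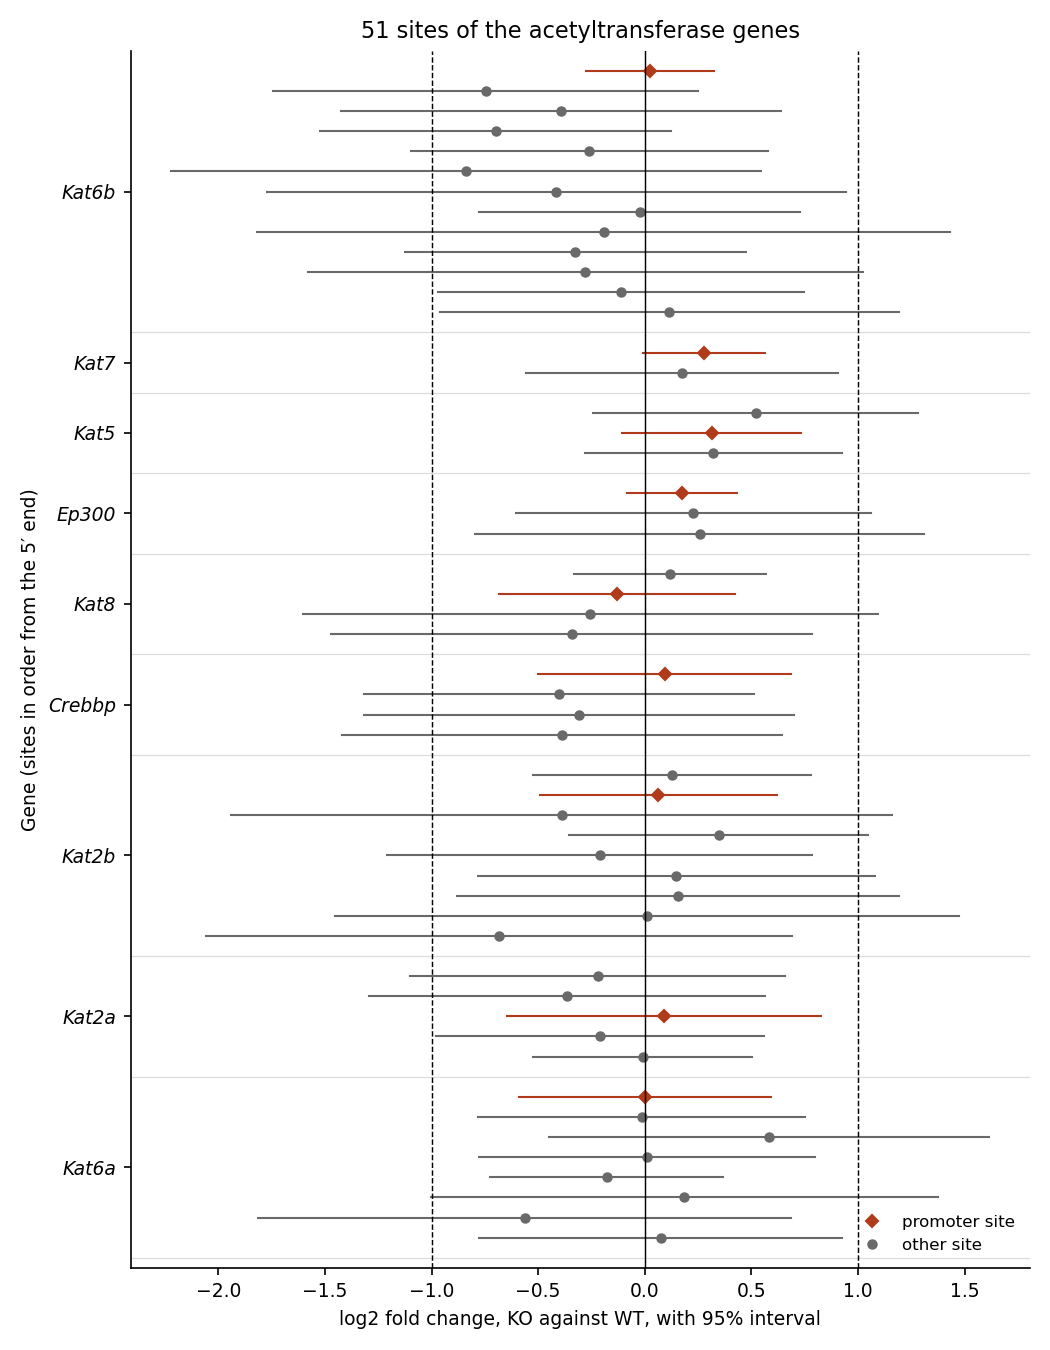
Fold change of KO against WT on the log2(value + 1) scale for the 51 sites, grouped by gene and ordered from the 5′ end, with 95% intervals from limma as bars (diamonds are promoter sites, circles other sites, dashed lines mark -1 and 1). The 9 promoter sites lie between -0.13 and 0.31 with intervals inside the dashed lines, and 11 of the 12 other Kat6b sites lie below 0.

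Among the promoter sites, 1 of 9 had a fold change below 0, while 4 of 9 did so with equal library totals or quantile normalization. The median was 0.09 and the range -0.13 to 0.31. The median over the 12286 protein-coding promoter sites was 0.03, and 43.9% of those were below 0. In the whole table the sign of the fold change at promoters differed with their strength. When these promoters were split by mean value into 4 groups of nearly equal size, the weakest group had a median log2 fold change of -0.23 and the strongest 0.14, with 25.6% and 84.3% above 0. Under quantile normalization, which sets all libraries to 1 distribution, the median of the strongest group was -0.02. Kat5, Kat6b, Kat7 and Ep300 belong to the strongest group, in which both KO values exceeded both WT values at 46.6% of sites.

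Kat7, the catalytic subunit of the HBO1 complex, had the lowest p of all member sites in the main fit by limma. With equal library totals, quantile normalization or no intensity trend, Kat6b site 4 had the lowest. The Kat7 promoter site (chr11:95309432-95310728) gave 649 and 677 normalized counts in WT and 723 and 893 in KO. Both KO lines lay above both WT lines, and KO replicate 2 was far above the rest. The log2 fold change was 0.28 (SE 0.12, 95% interval -0.01 to 0.56, adjusted p = 1), and 0.06 with quantile normalization. Without KO replicate 1 it was 0.43, past the p threshold of 0.01 but under the fold needed for a call, and without KO replicate 2 it was 0.13, so that the size rests on 1 KO line. The strongest other Kat7 site, in an intron, gave 59 and 64 in WT and 70 and 69 in KO, a log2 fold change of 0.17 (95% interval -0.56 to 0.91).

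At Kat5, which encodes the catalytic subunit of the TIP60 complex, the promoter site (chr19:5609202-5610400) gave 313 and 332 in WT and 459 and 350 in KO. KO replicate 1 stood apart, while KO replicate 2 was close to the WT lines, and the groups did not overlap. The log2 fold change was 0.31 (95% interval -0.11 to 0.73, adjusted p = 1). It was 0.51 without KO replicate 2 and 0.12 without KO replicate 1. The other sites near Kat5 were of the same sign. Kat5 site 1, upstream of the gene, gave 61 and 48 in WT and 79 and 77 in KO (log2 fold change 0.52, 95% interval -0.24 to 1.28), and Kat5 site 3, which covers the TSS of the neighbouring gene Rnaseh2c, gave 210 and 179 in WT and 295 and 199 in KO (0.32, 95% interval -0.28 to 0.92).

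Chromosome 19 as a whole stood higher in 1 of the KO lines. Over all its sites, the median log2 difference from the WT mean was 0.47 for KO replicate 1 and -0.03 for KO replicate 2. At the Kat5 promoter these differences were 0.51 and 0.12. When each library was centred on its median per chromosome, the Kat5 promoter fold change was 0.11. The promoter sites whose pattern over the 4 libraries was nearest to that of Kat5, by Euclidean distance between centred log2 values, were those of Fam45a (237 and 250 in WT, 341 and 266 in KO), Rbm4 (440 and 466 in WT, 646 and 502 in KO) and Actn3 (379 and 410 in WT, 558 and 436 in KO), all of them on chromosome 19. Within a distance of 0.2 lay 265 of 12110 promoter sites searched, of which 141, or 53.2%, were on chromosome 19, against 3.54% of those searched. Whether this whole-chromosome difference is one of copy number was not tested, and at Kat5 the genotype and the chromosome of KO replicate 1 cannot be told apart.

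**Figure D3:**
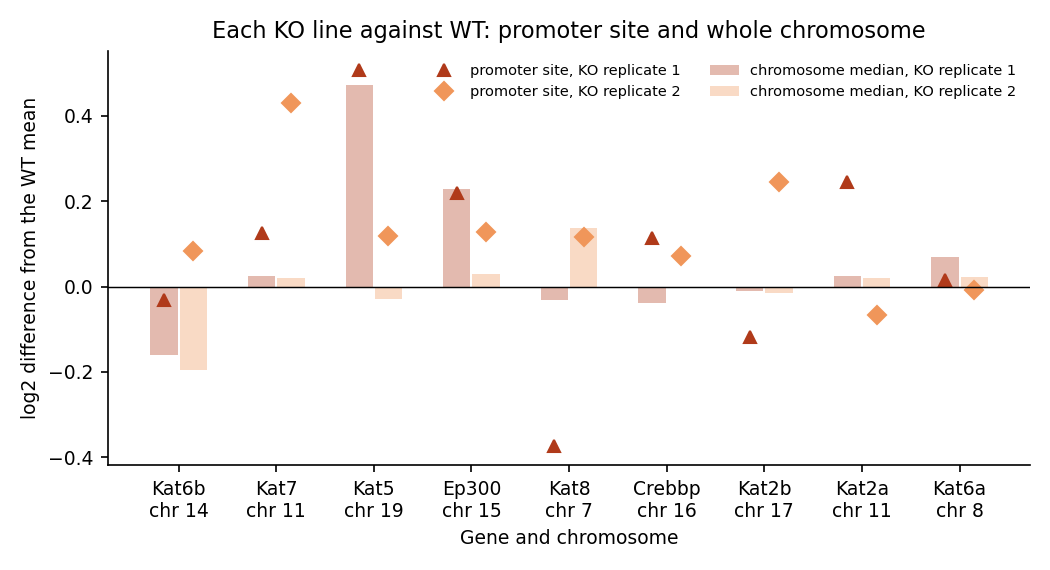
Log2 difference of each KO line from the WT mean at the 9 promoter sites (symbols) and as the median over all sites of the same chromosome (bars). Kat5 and the median of chromosome 19 are both high in KO replicate 1 (0.51 and 0.47), whereas at Kat7 KO replicate 2 is high (0.43) with a median of chromosome 11 of 0.02.

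The paralogous coactivators Ep300 and Crebbp showed small differences. At the Ep300 promoter (chr15:81584980-81586877) the values were 528 and 489 in WT and 592 and 555 in KO. Both KO lines lay above both WT lines, with a log2 fold change of 0.17 (95% interval -0.09 to 0.43). For chromosome 15 the median log2 difference from the WT mean was 0.23 for KO replicate 1 and 0.03 for KO replicate 2, and the Ep300 fold change was 0.09 after centring by chromosome. The intronic Ep300 site 2 gave 42 and 59 in WT and 58 and 59 in KO. The Crebbp promoter site (chr16:4213922-4214549) gave 140 and 116 in WT and 138 and 134 in KO, a log2 fold change of 0.09 (95% interval -0.50 to 0.69). A second Crebbp site at a TSS, downstream of the first, gave 89 and 65 in WT and 73 and 45 in KO, with a log2 fold change of -0.40 (95% interval -1.32 to 0.51). The 2 Crebbp sites thus differed in sign, and the values of the genotypes overlapped at each.

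For the GNAT paralogues, Kat2a and Kat2b, the genotypes overlapped at both promoters. The Kat2a promoter site (chr11:100712227-100712732) gave 104 and 78 in WT and 107 and 86 in KO, where replicate 1 was the higher in each genotype. Its log2 fold change was 0.09 (95% interval -0.65 to 0.83). The other 4 sites near Kat2a lay outside this short gene. One of them covered the TSS of Dhx58 and another lay 659 bp from the TSS of Hspb9, so that they cannot be assigned to Kat2a. Among these, Kat2a site 2 gave 69 and 54 in WT and 37 and 60 in KO, and Kat2a site 5 gave 168 and 203 in WT and 190 and 177 in KO.

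At Kat2b the strongest promoter site (chr17:53567773-53568650) lay 802 bp downstream of the first start and gave 182 and 164 in WT and 159 and 205 in KO. The log2 fold change was 0.06 (95% interval -0.49 to 0.62). The site at the start itself was weaker, with 95 and 101 in WT and 98 and 117 in KO. Across the gene the KO lines were unlike each other, and KO replicate 1 was below KO replicate 2 at 7 of 9 sites. Kat2b site 5, at an internal TSS, gave 56 and 119 in the KO lines against 89 and 101 in WT. Kat2b site 8 gave 105 and 41 in WT and 42 and 104 in KO, so that each genotype had a high and a low line. Kat2b site 4 was the only site of the gene where the genotypes did not overlap, with 70 and 70 in WT and 96 and 83 in KO, a log2 fold change of 0.35 (95% interval -0.35 to 1.05).

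Kat8 encodes the MYST acetyltransferase of the MSL and NSL complexes. Its promoter site (chr7:127912192-127912959) gave 219 and 233 in WT and 174 and 245 in KO. The KO lines lay on both sides of the WT lines. The log2 fold change of -0.13 (95% interval -0.68 to 0.42) was the only one below 0 among the 9 promoters, and it was 0.12 without KO replicate 1. Kat8 site 1 covers the TSS of the neighbouring gene Bckdk and gave 232 and 281 in WT and 258 and 298 in KO.

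The Kat6a promoter was the most even of the 9. Its site (chr8:22858847-22859774) gave 132 and 116 in WT and 125 and 123 in KO, with equal group means of 124 and a log2 fold change of 0.003 (95% interval -0.59 to 0.59). The strongest site of the gene was not its promoter. Kat6a site 5, in an intron, gave 215 and 202 in WT and 213 and 159 in KO, with a log2 fold change of -0.18 (95% interval -0.72 to 0.37). The weak intronic Kat6a site 3 had the highest fold change of the 51 sites, 0.58 (95% interval -0.45 to 1.61), on values of 20 and 26 in WT and 40 and 30 in KO.

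Kat6b was the largest of the genes, with 13 sites over 191045 bp, and most of its sites outside the promoter had fold changes below 0. The promoter site (chr14:21499836-21501270) gave 1060 and 829 in WT and 917 and 994 in KO, and both KO values fell between the WT values. The log2 fold change was 0.03 (95% interval -0.27 to 0.33). Of the 12 other sites, 11 had a fold change below 0, with a median of -0.30, and after centring by chromosome 8 did, with a median of -0.09. At Kat6b site 4, in an intron, the values were 107 and 84 in WT and 70 and 48 in KO, with a log2 fold change of -0.70 (95% interval -1.52 to 0.12, adjusted p = 1). Kat6b site 2 gave 59 and 66 in WT and 27 and 50 in KO (-0.75, 95% interval -1.74 to 0.25). In these 2 of the 12 sites both KO lines lay below both WT lines, which was the case at 14.3% of all sites. Kat6b site 6 had the lowest fold change of all member sites, -0.84 (95% interval -2.22 to 0.55), where KO replicate 2 alone was low at 14 against 48, 41 and 42.

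At other Kat6b sites the lines of 1 genotype were unlike each other. Kat6b site 9 gave 110 and 29 in WT and 68 and 36 in KO, and Kat6b site 10 gave 120 and 118 in WT and 73 and 123 in KO. Kat6b site 5, close to site 4, gave 112 and 87 in WT and 104 and 65 in KO. WT replicate 1 exceeded WT replicate 2 at 10 of these 12 sites, and KO replicate 1 exceeded KO replicate 2 at 9 of 12. The whole of chromosome 14 had a median log2 fold change of -0.18, beside a median log2 difference of 0.36 between WT replicate 1 and WT replicate 2, and 67.8% of its 2561 sites over 1 kb from a protein-coding TSS were below 0, against 49.8% of such sites in the genome. After centring by chromosome the summed value of Kat6b had a log2 ratio of 0.10 in place of -0.11. The promoter site then had a fold change of 0.24, at an unadjusted p by limma between 0.01 and 0.05. The part of the chromosome in the values of Kat6b was not tested further.

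**Figure D4:**
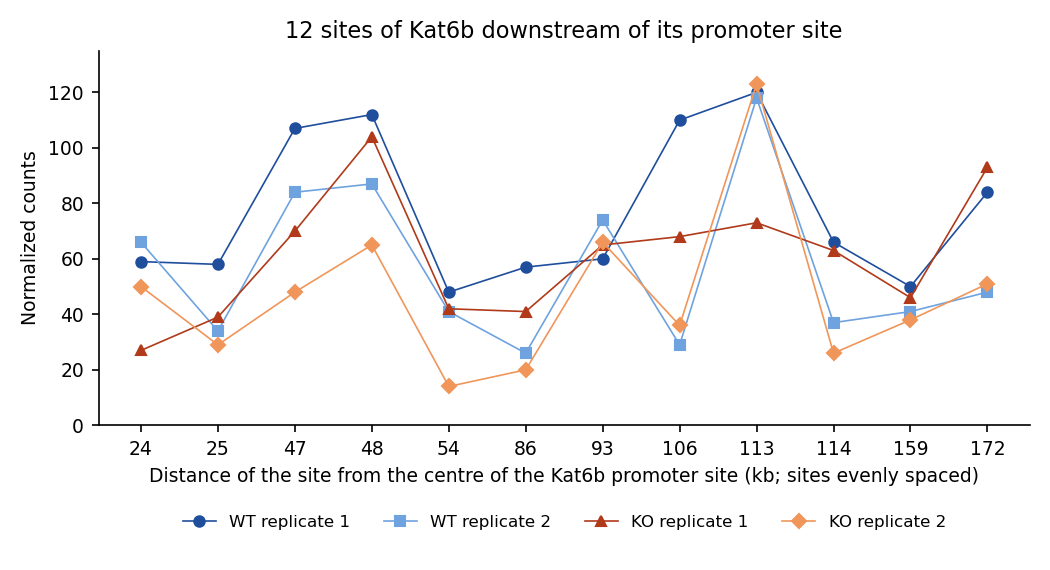
Normalized counts of the 12 Kat6b sites outside the promoter in each of the 4 libraries, ordered by distance from the promoter site (labelled in kb, sites evenly spaced, lines join values of 1 library). Replicate 1 of each genotype is the higher at most sites, and the KO lines lie below both WT lines at Kat6b sites 2 and 4 only. Both KO values lie below both WT values at 14.3% of all sites in the genome.

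**Figure D5:**
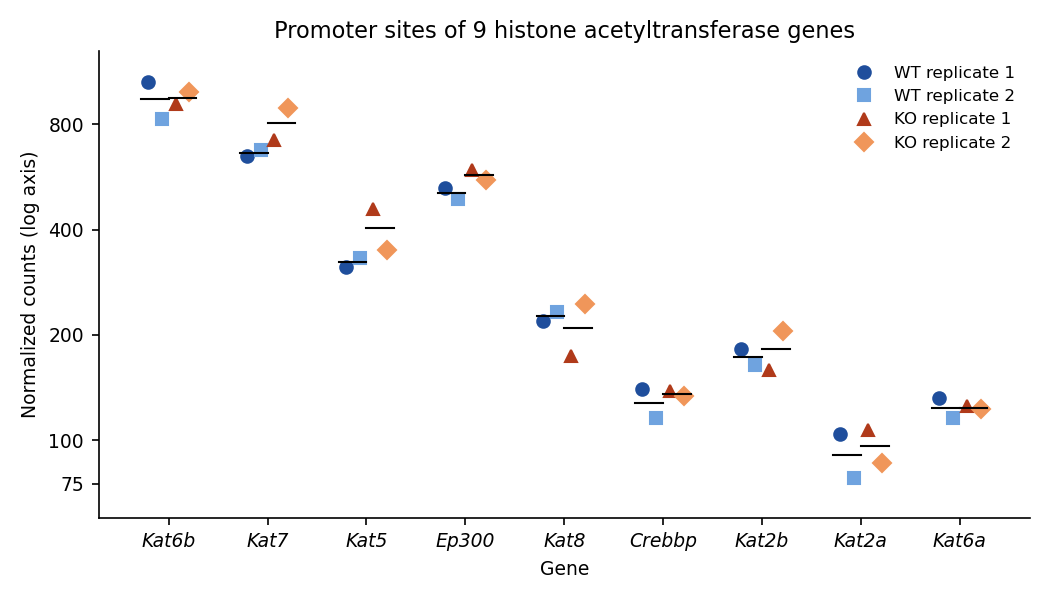
Normalized counts of the 9 promoter sites in each library on a log axis, with group means as black lines. The KO and WT values are separate at Kat7, Kat5 and Ep300 and overlap at the other 6 genes. Both KO values lie above both WT values at 21.9% of all protein-coding promoter sites.

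Values were also summed over all member sites of a gene. The sums of Kat2a, Kat5 and Kat8 include sites at or near TSSs of neighbouring genes, which cannot be assigned to the member. In Kat8 the site at the TSS of Bckdk (mean 267.25) was stronger than the promoter site (217.75). In Kat5 the site at the TSS of Rnaseh2c had a mean of 220.75. The log2 ratio given is the mean log2 sum in KO minus that in WT. Kat5 summed to 584 and 559 in WT and 833 and 626 in KO, a log2 ratio of 0.34. Kat7 summed to 708 and 741 in WT and 793 and 962 in KO, a log2 ratio of 0.27. Ep300 summed to 590 and 574 in WT and 676 and 643 in KO (0.18). In these 3 genes both KO sums lay above both WT sums, as both KO values did at their promoter sites. The share of all genes with such sums was not computed. Among promoter sites it was 21.9% of all protein-coding ones and 46.6% of the strongest group, to which these promoters belong. Kat6b summed to 1991 and 1514 in WT and 1648 and 1560 in KO (-0.11). Crebbp summed to 321 and 249 in WT and 263 and 253 in KO (-0.13). Kat2a, Kat2b, Kat6a and Kat8 had log2 ratios between -0.08 and 0.04. With 1 library left out, the ratio ranged from 0.13 to 0.54 in Kat5, 0.13 to 0.41 in Kat7 and 0.14 to 0.22 in Ep300. It took both signs in Kat2b (-0.24 to 0.31), Kat8 (-0.20 to 0.17), Kat6b (-0.31 to 0.08), Crebbp (-0.31 to 0.05) and Kat6a (-0.11 to 0.03), and for Kat6b and Crebbp it was above 0 only without WT replicate 1. The ratios of Kat5, Kat7 and Ep300 also depended on the scaling. With quantile normalization they were 0.25, 0.07 and 0.04, in that order. Centring by chromosome gave 0.13, 0.28 and 0.09, and equal library totals gave 0.27, 0.20 and 0.11. With 2 lines against 2, the smallest two-sided exact permutation p is 0.333, and no test was made on the sums. The promoter site made up 91.8% of the sum in Kat7 and 87.2% in Ep300, but 20.7% in Kat6a, 21.2% in Kat2a and 25.5% in Kat2b. In a mixed culture, fewer cells with an open site and a less open site in each cell cannot be told apart.

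The study located large domains that lose accessibility without HAT1 in primary fibroblasts, and reported very similar patterns of these domains in immortalized fibroblasts. It used a mean log2 fold change under -0.58 in windows of 25 data points, and joined nearby regions. Here the same limit was put on the limma fold changes of the immortalized lines over 25 consecutive sites, with no joining. Whether the members overlap the published domains was not examined. Around the 51 member sites this window mean ranged from -0.34 to 0.33, and 0 of 51 fell under the limit, against 3.40% of all sites. At the promoter sites the window mean was lowest in Kat6b, at -0.27, and highest in Kat5, at 0.30.

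The acetyltransferases work in complexes with scaffold and reader subunits, and 45 genes of such subunits were examined in the same way. Of these, 44 had a promoter site and 0 were called by limma in either direction. At an unadjusted p under 0.05, 3 of 44 passed, all of them higher in KO, against 4.18% of all protein-coding promoter sites and 9.48% of the strongest of the 4 groups, to which these 3 belong. Mcrs1, a subunit of the NSL complex, gave 444 and 435 in WT and 547 and 583 in KO (log2 fold change 0.36, 95% interval 0.10 to 0.62). Kansl2, of the same complex, gave 569 and 605 in WT and 722 and 701 in KO (0.28, 95% interval 0.06 to 0.50). Ep400, the ATPase of the TIP60 complex, gave 626 and 587 in WT and 706 and 735 in KO (0.25, 95% interval 0.03 to 0.47). The Benjamini-Hochberg adjusted p of each was 1, and Mcrs1 and Kansl2 are both on chromosome 15.

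The median log2 fold change over the 44 promoters was 0.11, and 5 of them were below 0, but with quantile normalization the median was 0.01 and 20 were below 0. Mcrs1, Kansl2 and Ep400 then had fold changes of 0.20, 0.09 and 0.06. Both KO values lay above both WT values at 17 of the 44 and below them at 2, against 21.9% and 14.7% of all protein-coding promoter sites and 46.6% above in the strongest of the 4 groups. By complex the median was 0.13 over 13 subunits of SAGA and ATAC, 0.10 over 13 of the TIP60 complex, 0.08 over 9 of the MOZ, MORF and HBO1 complexes and 0.19 over 9 of the MSL and NSL complexes. The lowest values were those of Dmap1 (130 and 117 in WT, 100 and 111 in KO, log2 fold change -0.23) and Supt3 (292 and 295 in WT, 259 and 257 in KO, -0.19). The highest were Mbip (75 and 99 in WT, 97 and 138 in KO, 0.42) and Epc2 (175 and 168 in WT, 222 and 235 in KO, 0.41). The 44 promoters had a median of 310 normalized counts against 228 over all protein-coding promoter sites. They fell in all 4 groups by strength. From the weakest to the strongest group, the median log2 fold changes were -0.23, -0.0045, 0.05 and 0.14. Each fold change is to be read beside the median of its own group. By mean value, Mbip (102.25) and Dmap1 (114.5) belong to the weakest group, Epc2 (200) to the second and Supt3 (275.75) to the third.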

How the data were processed

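ATAC-Seq was performed on 4 libraries, 2 per genotype, grouped by the genotype label. Replicate numbers follow accession order, are names only and pair nothing. Per the study methods and the submitters' processing notes, paired-end reads were aligned to mm10 with BWA 0.7.12, peaks were called with MACS2 2.1.0, and DESeq2 was run by the authors. The deposited values are a score per site and library: the authors scaled read counts by a library factor and rounded them. Read filters, the Tn5 offset and whether reads or fragments were counted are not given in the sources used here. The same table holds the authors' fold changes and p-values, which were not used.

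Values were tested as log2(value + 1) by limma 3.58.1 (R 4.3.3), with a trend of the variance on intensity, over all 82325 sites with no filter, on all 4 libraries. Benjamini-Hochberg adjustment was over all sites. Fold changes on this scale understate those of low sites, and p-values measure the spread between these lines only. The procedure was tested on simulated data, with planted changes larger than any fold change of a member site in the main fit. That test does not show how often changes as small as those of the member sites would be found. The authors' library factors were estimated from values between 5 and 100 that scaling leaves absent or frequent, which gave 5680000 to 11400000 reads in sites. The counting error that these depths allow was below the fitted standard error at all 51 member sites and at 82319 of the 82325 sites. Both errors cover these libraries only. Sites were annotated with GENCODE, and promoter windows came from RefSeq (GRCm38.p6). Python 3.11.15 was used.

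The members and lists were chosen with earlier results of these data known. Named sites were the promoter site of each gene, any called site, the strongest other site of each gene and, among other sites with at least the median value of all sites, the 5 lowest and 5 highest by fold change. Sites of Kat2b, Kat6a and Kat6b outside this rule were named after their values were seen, as was the choice of 4 printed sequences. Named subunits were those called, the 2 lowest and the 2 highest, and the 3 under p of 0.05 were added after their values were seen. Alternatives were 2 other scalings, centring by chromosome, another pseudocount, a filter on low values, limma without the trend, another threshold, sites within 1 kb of a TSS, and leaving out each library.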

Additional observations from a re-analysis of the deposited data

How the results depend on the processing

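The count of called member sites was 0 under every alternative run, and that of called subunit promoters was 0 under the 10 other scalings, filters, fits and omissions, while 3 of them passed p under 0.05 with any fold. The count over all sites was 307, and it was 537 without the intensity trend, 2579 at p under 0.05 with any fold, and from 36 to 612 with 1 library left out: 71 without WT replicate 1, 36 without WT replicate 2, 274 without KO replicate 1 and 612 without KO replicate 2. The share called as lower was 81.1%, but 28.2% and 38.9% without WT replicate 1 and 2. The median log2 fold change of the member sites was -0.01, and it was -0.0826 with equal library totals (which moved the median of all sites to -0.06), -0.0832 with quantile normalization, 0.0632 for sites within 1 kb of a TSS, and from -0.12 to 0.0374 with 1 library left out, the former without WT replicate 2. Promoter fold changes near 0 turned sign. With equal library totals Kat2b gave -0.0049, Kat6a -0.065 and Kat6b -0.0421. Quantile normalization gave -0.0115 for Kat2b, -0.0484 for Kat6a and -0.24 for Kat6b, and centring by chromosome -0.0356 for Kat6a. With 1 library left out, the ranges were -0.0417 to 0.23 for Crebbp, -0.12 to 0.30 for Kat2a, -0.12 to 0.25 for Kat2b, -0.0895 to 0.10 for Kat6a, -0.15 to 0.20 for Kat6b and -0.37 to 0.12 for Kat8. Kat5 (0.11 to 0.51), Kat7 (0.06 to 0.43) and Ep300 (0.01 to 0.23) stayed above 0 under all 10 alternatives. An absolute log2 fold change of 1 was passed by 1 member site under each omission of a library: Kat2b site 9 without WT replicate 1 (-1.33), Kat6b site 9 without WT replicate 2 (-1.14), Kat6b site 6 without KO replicate 1 (-1.60) and Kat6b site 2 without KO replicate 2 (-1.18). Their unadjusted p did not pass 0.01. The cause was not tested. A genotype with 1 library left was taken to vary like the other. Summed values involve no test, so that the fit without the trend gave them no other value. No paired analysis was possible because the line names share a number across genotypes in only 1 pair, WT replicate 1 and KO replicate 2, and what this number marks is not stated. Intervals reached a 2-fold change at 30 of the 42 sites outside promoters, and the counting error was below the fitted standard error at all 51 member sites (medians 0.18 and 0.35).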

Other observations

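At 2 of the 8 genes with a RefSeq promoter window, the start of the window used lay at the edge of or outside the listed sites. The promoter sites beside these starts were open. In GENCODE, Kat6b and Crebbp each also had another protein-coding start within the promoter site. The Kat6b window (GC content 78.3%, 32 CpG) had 0 of its 300 bases in a site and ended just upstream of the strongest member site. The Crebbp window (GC content 82.0%, 49 CpG) had 81 of 300 bases in the weaker of its 2 sites at a TSS and none in the stronger. The windows of Kat2a, Kat5, Kat7, Kat8 and Ep300, with GC content from 53.0% to 72.3%, lay wholly inside a site. That of Kat2b had 251 bases in the weaker site at its first start and none in its promoter site. Among RefSeq windows with a site within 1 kb of the start, 81.2% of 1693 windows with a GC content from 70% to 75% lay wholly inside a site, against 72.1% of 872 from 75% to 80% and 42.7% of 307 at 80% or more. At the other end, 54.4% of 5089 windows from 50% to 60% and 22.4% of 2431 under 50% did so. These are shares of windows in the listed sites, and the amplification and alignment of such sequences were not examined.

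Of the 33 protein-coding TSSs annotated for the 9 genes, 20 had a site within 1 kb. The 5′-most protein-coding start of Kat6b was 18402 bp from the nearest site. For Crebbp, 4 of 6 starts lay 32030 bp or more from any site, and for Ep300, 3 of 4 lay 6328 bp or more from one. At Kat2b a start inside the gene lay within a site of 89 and 101 normalized counts in WT and 56 and 119 in KO.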
